A study of Mus musculus and Homo sapiens
Mus musculus with 14 samples.

Results

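The genes described here are the 32 that carry glucose from the cell surface to pyruvate, turn pyruvate into lactate and back, move lactate and pyruvate across membranes, and admit pyruvate to the mitochondrion. They were chosen by symbol from the 2 retinal count tables. All 32 were among the 24460 genes listed for the retinal layers, and 31 were among the 18415 listed for the amacrine cells, where Pdk4 has no row. The series used Light-Seq, in which RNA of a fixed section is copied to cDNA in place with random primers, a DNA barcode with a unique molecular identifier (UMI) is crosslinked by light to the cDNA of hand-drawn regions, and the barcoded cDNA is released and sequenced. In 4 sections from the same animal, the photoreceptor nuclei of the outer nuclear layer (ONL), the bipolar cell layer (BCL) and the ganglion cell layer (GCL) each received a barcode. In 5 further sections, amacrine cells stained for tyrosine hydroxylase (TH+, the dopaminergic amacrine cells) and amacrine cells without the stain (TH-) each received one. Every retina came from wild-type CD1 IGS mice in the third postnatal week, without treatment, transgene or Cre driver. The TH+ libraries each pool a handful of cells. The sections are technical replicates, so each p-value measures the spread between sections and not between animals.

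Glucose enters through facilitative transporters, is trapped by hexokinase, and is split by aldolase after a committed step at phosphofructokinase. The lower steps end in pyruvate, which lactate dehydrogenase can reduce to lactate for export through monocarboxylate transporters, or which the mitochondrial pyruvate carrier and pyruvate dehydrogenase can pass to the citric acid cycle. Most steps have several isoforms from separate genes. Photoreceptors are known for aerobic glycolysis, the making of lactate in the presence of oxygen, while neurons of the inner retina are known to rely more on oxidation.

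The layer libraries held between 193869 and 801105 UMIs and the amacrine libraries between 30317 and 200344. Levels are given as CPM, the UMIs of a gene per 1e6 UMIs of its library. Marker genes followed the labels. The sum of 9 rod markers was 68937 ± 6174 CPM (SD, n = 4) in the ONL, 16745 ± 3855 CPM in the BCL and 6345 ± 1540 CPM in the GCL, so rod transcripts were counted in every layer. The sum of 8 bipolar markers was highest in the BCL (6999 ± 365 CPM), where that of 7 Müller glia markers was also highest (7840 ± 399 CPM), and the sum of 9 ganglion cell markers was highest in the GCL (7059 ± 394 CPM). Amacrine and astrocyte markers were also highest in the GCL among the layers, at 2461 ± 112 CPM and 190 ± 28.3 CPM. In such bulk regions, fewer cells of a type and less RNA per cell cannot be told apart.

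Sequence bears on which members could be counted. The cDNA reads were up to 40 bases long and reads with several matches in the genome were discarded, so each canonical mRNA (GENCODE, GRCm39) was cut into all windows of 40 bases and exact copies outside the gene were sought. In 19 of the 32 members no coding window had a copy. In 10 members some had, and in Gapdh, Pgk1 and Pgam1 every coding window had. The windows below show both extremes. The Gapdh window, at chr6:125139879-125139918 on the minus strand, had 101 exact copies elsewhere. The Pgk1 window, at chrX:105243858-105243897 on the plus strand, had 4, and the Ldha window, at chr7:46497045-46497084 on the plus strand, had 7. The Hk2 window, at chr6:82750922-82750961 on the minus strand, had 0. All lie in coding exons.
Gapdh: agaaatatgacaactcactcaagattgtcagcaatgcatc
Pgk1: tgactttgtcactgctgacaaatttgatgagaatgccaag
Ldha: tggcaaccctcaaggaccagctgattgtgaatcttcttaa
Hk2: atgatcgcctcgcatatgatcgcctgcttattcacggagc

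**Figure D1:**
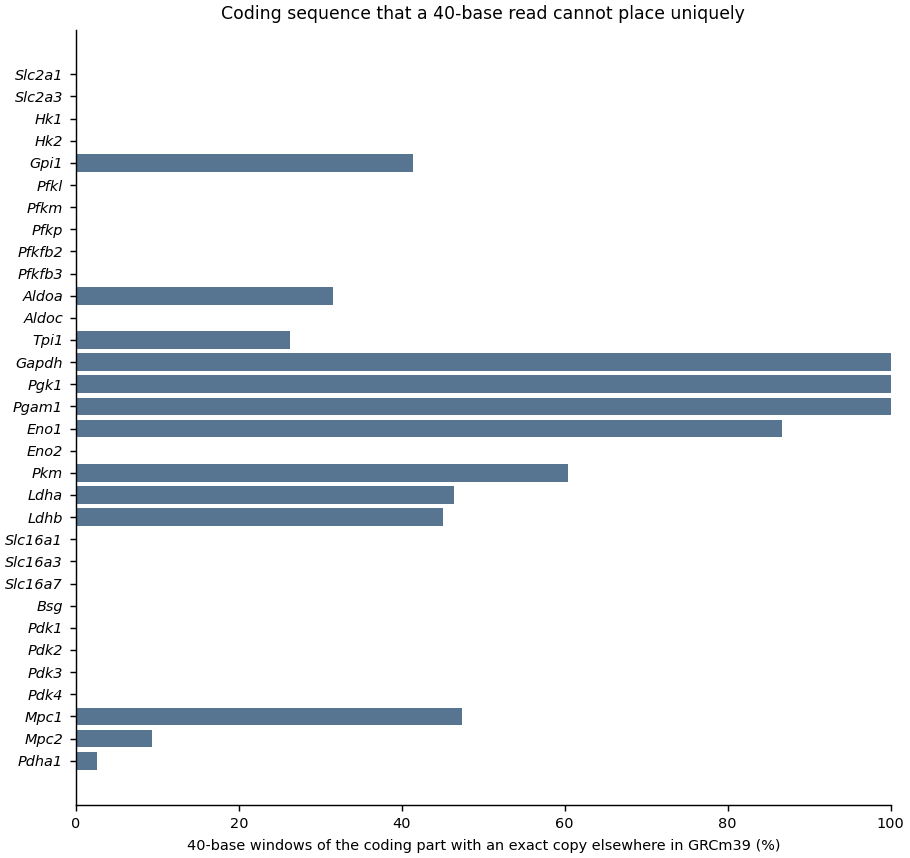
Share of the 40-base coding windows of each member mRNA (x axis, in percent; 1 bar per gene) with an exact copy elsewhere in GRCm39. Gapdh, Pgk1 and Pgam1 stand at 100%, Eno1 at 86.6%, Pkm at 60.4%, and 19 members at 0%.

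The counts of these genes were small. Gapdh, the glyceraldehyde 3-phosphate dehydrogenase and usually among the most abundant mRNAs of a cell, had 20, 13, 10 and 14 UMIs across the ONL libraries, against 4, 2, 3 and 5 for the BCL and 11, 10, 17 and 10 for the GCL. Pgk1, the phosphoglycerate kinase, had at most 6 UMIs in any library, and Pgam1, the phosphoglycerate mutase, at most 3. Mpc1, a subunit of the mitochondrial pyruvate carrier with copies of 47.4% of its coding windows, had 2 UMIs in 1 GCL library and 1 in 1 TH- library. Pdk4, a pyruvate dehydrogenase kinase with none, had 1 UMI in 1 BCL library and 0 in the other 11 layer libraries, where a count of 0 allows up to between 3.74 and 15.5 CPM. The levels of Gapdh, Pgk1 and Pgam1 are therefore not comparable with those of the other members. Eno1, with copies of 86.6% of its coding windows, still had between 131 and 138 UMIs in the BCL libraries, and the cause of the low Mpc1 counts was not tested. For the members with copies of part of their coding sequence (Eno1, Pkm, Mpc1, Ldha, Ldhb, Gpi1, Aldoa, Tpi1, Mpc2 and Pdha1) the copied stretches could give no uniquely mapped read, and levels between genes are affected to that extent. In some other members only windows that are not wholly coding had copies, such as 4.40% of all windows of Pfkfb2 and 3.10% of those of Pdk3. A comparison of the same gene between layers uses the same countable sequence, but UMIs left over from reads of a copy cannot be told apart from its own.

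Of the 32 members, 29 passed the filter on low counts in the layers, and Pgam1, Pdk4 and Mpc1 did not. For the ONL against the BCL, 18 of the 29 passed edgeR's quasi-likelihood test (Benjamini-Hochberg adjusted p under 0.05), 11 with the higher level in the ONL (18.5% of all genes) and 7 with the higher level in the BCL (18.2%). Of all 11324 genes tested, 36.7% were called. For the ONL against the GCL, 22 were called, against 61.5% of all genes, of which 12 were higher in the ONL (29.3% of all genes) and 10 in the GCL (32.2%). Comparing the BCL with the GCL, 14 were called, against 36.5% of all genes, with 7 higher in the former (16.1%) and 7 in the latter (20.4%). The share of members called was thus 62.1%, 75.9% and 48.3%. The median log2 fold change of the 29 was -0.01, 0.33 and 0.02 in these comparisons, beside 0.09, 0.00 and -0.02 over all genes. Scaling by library totals in place of TMM (trimmed mean of M-values) moved the median of all genes between the ONL and the BCL to -0.25 and the split of calls to 29.3% higher in the ONL, from 50.5%. On that scale 20 members were called between these layers, 9 in favour of the ONL and 11 of the BCL. For the BCL against the GCL it moved the median of all genes to 0.15, the split of calls to 55.7% higher in the BCL, from 44.2%, and the members called to 17, 10 in favour of the BCL. Fold changes below are on the TMM scale, first layer minus second, with their SE.

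Of the 29, 10 (34.5%) had their highest level in the ONL, called against both other layers, as had 15.7% of all genes: Slc2a1, Hk1, Hk2, Pfkl, Pfkfb2, Aldoa, Pkm, Ldha, Slc16a1 and Slc16a3. They are a glucose transporter, hexokinases, genes of the phosphofructokinase step, an aldolase, pyruvate kinase, a lactate dehydrogenase and monocarboxylate transporters, and none is an isomerase or an enolase. Gapdh, Pgk1 and Pgam1 could give few uniquely mapped reads, so their absence from these 10 says nothing about their steps. In the GCL, 6 (20.7%, against 17.5% of all genes) were called higher than in both others: Slc2a3, Pfkm, Aldoc, Eno2, Ldhb and Pdha1. Pfkfb3 alone was higher in the BCL than in both others (5.83% of all genes), and Pdk3 alone was lower there than in both others (2.27%). Lower in the ONL than in both others were 7 members (13.8% of all genes), Slc2a3, Pfkm, Pfkp, Pfkfb3, Aldoc, Slc16a7 and Pdk1, and lower in the GCL than in both others were 6 (10.3%), Slc2a1, Hk2, Pfkl, Eno1, Slc16a1 and Bsg. The 10 highest in the ONL became 8 on library totals, Pfkl and Slc16a3 no longer among them, and 9 with DESeq2. They became 11 with edgeR's default filter on low counts or without the fourth section. Without the fourth section, 4 rather than 7 were lower in the ONL than in both others, Pfkp, Aldoc and Pdk1 no longer among them. The 6 lower in the GCL became 3 with no filter on low counts and 4 without the second or the fourth section, and on library totals 3 members were higher in the BCL than in both others.

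**Figure D2:**
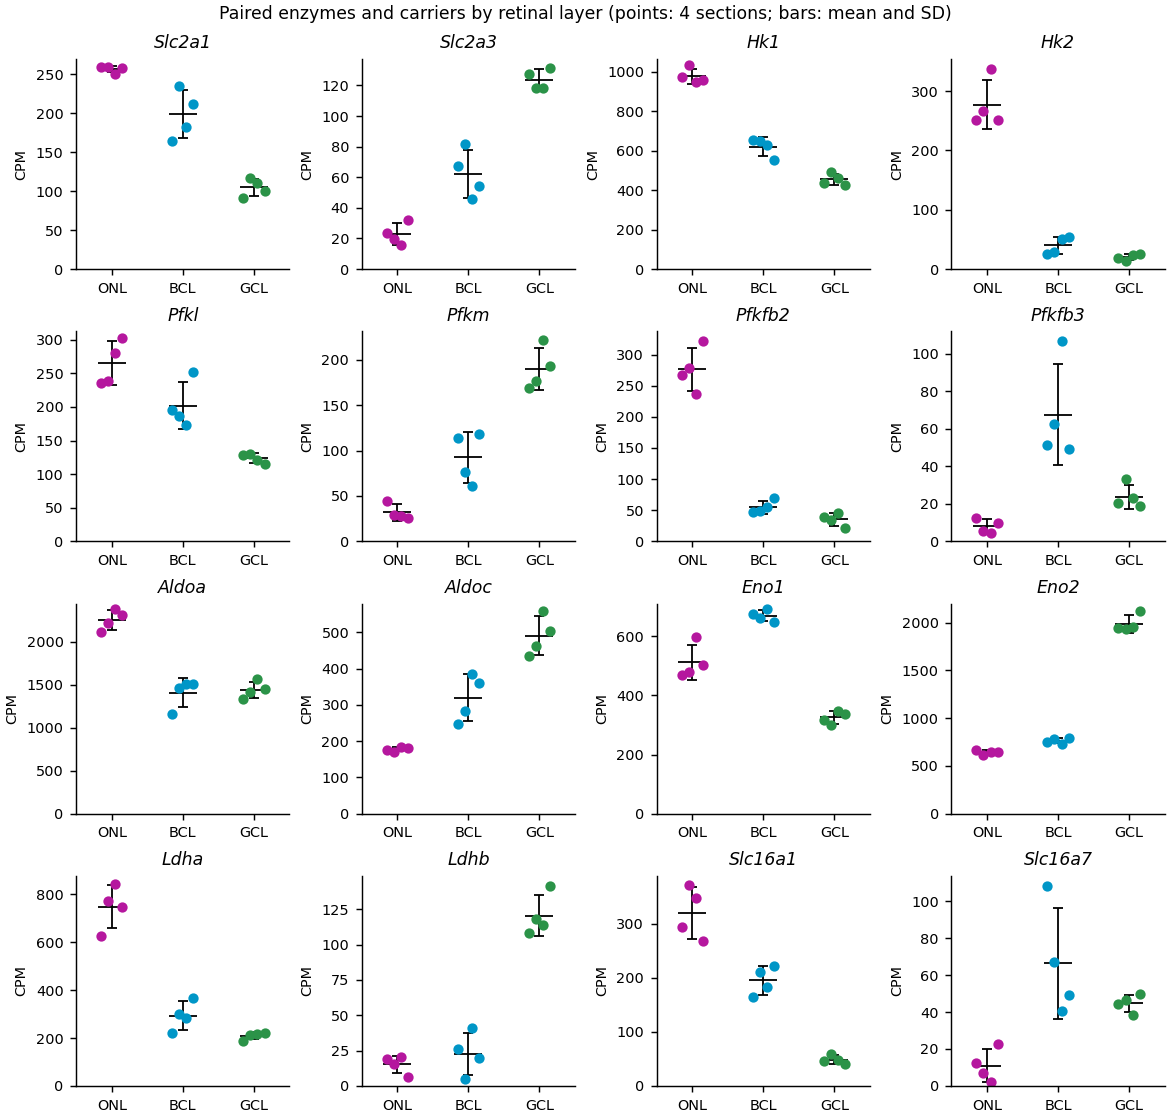
CPM (y axis, linear from 0) of 16 members in the ONL, BCL and GCL, 1 point per section and layer, with bars for the mean and SD over 4 sections. In Slc2a1, Hk1, Hk2, Pfkfb2, Aldoa, Ldha and Slc16a1 the 4 ONL points lie above all GCL points, and in Slc2a3, Pfkm, Aldoc, Eno2 and Ldhb they lie below them.

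Slc2a1 encodes GLUT1, the glucose transporter of photoreceptors, glia and vessels. Its level was 260, 260, 251 and 258 CPM in the 4 ONL sections, 165, 235, 183 and 213 CPM in the BCL and 91.7, 117, 111 and 101 CPM in the GCL. The 3 layers did not overlap. The log2 fold change was 0.70 ± 0.14 between the ONL and the BCL (adjusted p = 6.0e-05) and 1.46 ± 0.13 between the ONL and the GCL (adjusted p = 4.0e-15). Slc2a3 encodes GLUT3, the neuronal glucose transporter with high affinity, and it ran in the opposite order. It stood at 23.7, 19.4, 15.98 and 32.2 CPM in the ONL, 67.1, 81.6, 45.7 and 54.4 CPM in the BCL and 127, 118, 118 and 131 CPM in the GCL. Here too the layers did not overlap, with a log2 fold change of -2.31 ± 0.20 between the ONL and the GCL (adjusted p = 2.8e-15) and -1.15 ± 0.21 between the BCL and the GCL (adjusted p = 7.7e-06).

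Hexokinase traps glucose as glucose 6-phosphate. Hk1, the widespread form bound to mitochondria, had 974, 1035, 947 and 957 CPM in the ONL, 655, 648, 630 and 554 CPM in the BCL and 438, 495, 459.5 and 427 CPM in the GCL. Hk2, a second mitochondrial form best known from muscle and tumours and present in photoreceptors, had 251, 267, 338 and 251 CPM in the ONL, 25.8, 28.8, 50.8 and 54.4 CPM in the BCL and 17.8, 13.5, 23.1 and 25.6 CPM in the GCL. Every ONL section was above every section of the other layers for both genes. The lowest BCL section of Hk2 (25.8 CPM) lay just above its highest GCL section (25.6 CPM). Hk2 had the largest fold change of the tested members between the ONL and either other layer, with a log2 fold change of 3.11 ± 0.21 between the ONL and the BCL (adjusted p = 6.0e-18) and 3.95 ± 0.18 between the ONL and the GCL (adjusted p = 2.9e-26). For Hk1 these were 0.99 ± 0.11 (adjusted p = 1.7e-10) and 1.27 ± 0.10 (adjusted p = 9.5e-16). Hk1 differed by 0.28 ± 0.12 between the BCL and the GCL (adjusted p = 0.0514), a difference that was called with the section as a block (adjusted p = 0.0309). Hk2 was higher in the BCL than in the GCL by 0.84 ± 0.34 (adjusted p = 0.048), a call that was lost when any 1 of the 4 sections was left out (adjusted p from 0.0542 to 0.181). Per kilobase of gene model, Hk1 exceeded Hk2 in every layer, at 115 ± 4.59 against 46.4 ± 6.93 RPKM (CPM per kilobase; SD, n = 4) in the ONL and 53.3 ± 3.49 against 3.35 ± 0.91 RPKM in the GCL.

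The summed rod markers in the BCL and the GCL stood at 24.3% and 9.20% of their ONL level. Hk2 stood at 14.4% and 7.22% of its own, and Pfkfb2 at 19.9% and 12.9%. The other 8 members called highest in the ONL stood at 39.2% or more in the BCL and 15.2% or more in the GCL. The part of rod RNA in the BCL and GCL values of these genes was not tested.

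Gpi1, the glucose 6-phosphate isomerase, was not called in any of the 3 comparisons, with 453 ± 34.7 CPM in the ONL, 602 ± 32.5 CPM in the BCL and 517 ± 37.03 CPM in the GCL (SD, n = 4). On the library-total scale it was higher in the BCL than in the ONL (log2 fold change -0.43, adjusted p = 0.00185), and so were Tpi1, Eno1 and Bsg.

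The 3 phosphofructokinase genes, which commit sugar to glycolysis, did not move together. Pfkl, the liver form, was at 236, 239, 281 and 303 CPM in the ONL, 196, 187, 173 and 252 CPM in the BCL and 129, 130, 121 and 114 CPM in the GCL. Pfkm, the muscle form, was at 44.9, 29.1, 27.4 and 25.8 CPM in the ONL, 113, 76.8, 61.0 and 119 CPM in the BCL and 169, 177, 221 and 193 CPM in the GCL. Pfkp, the platelet form, was at 181, 183, 208 and 206 CPM in the ONL, 392, 326, 239 and 470 CPM in the BCL and 292, 291, 287 and 319 CPM in the GCL. Pfkl thus declined from the ONL to the GCL, with some overlap of ONL and BCL sections, Pfkm rose over the same path without overlap, and Pfkp was lowest in the ONL. The log2 fold change between the ONL and the GCL was 1.23 ± 0.12 for Pfkl (adjusted p = 8.1e-13), -2.31 ± 0.18 for Pfkm (adjusted p = 6.5e-17) and -0.46 ± 0.13 for Pfkp (adjusted p = 0.00121). Against the BCL, the ONL difference was 0.69 ± 0.14 for Pfkl (adjusted p = 7.8e-05) and -0.56 ± 0.15 for Pfkp (adjusted p = 0.00142). The Pfkl call was lost on the library-total scale (0.35, adjusted p = 0.0534) and the Pfkp call without the fourth section (-0.38, adjusted p = 0.0729). Between the BCL and the GCL the Pfkl call (0.54 ± 0.15) was lost without the fourth section (0.34, adjusted p = 0.157).

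Pfkfb2 and Pfkfb3 make and break fructose 2,6-bisphosphate, the activator of phosphofructokinase. Pfkfb2 had 267, 278, 237 and 322 CPM in the ONL, 46.4, 48.0, 55.9 and 69.2 CPM in the BCL and 39.5, 34.5, 46.1 and 22.2 CPM in the GCL. Pfkfb3 had 12.5, 5.53, 4.57 and 9.67 CPM in the ONL, 51.6, 62.4, 107 and 49.4 CPM in the BCL and 20.4, 33.0, 23.1 and 18.8 CPM in the GCL. The lowest Pfkfb2 section of the ONL was above every other section, while for Pfkfb3 the ONL was lowest and the BCL highest, again without overlap. The log2 fold change between the ONL and the BCL was 2.64 ± 0.20 for Pfkfb2 (adjusted p = 7.9e-17) and -2.64 ± 0.37 for Pfkfb3 (adjusted p = 4.8e-08). Against the GCL, Pfkfb2 in the ONL was 3.08 ± 0.15 higher (adjusted p = 2.7e-24), and the Pfkfb3 difference of -1.32 ± 0.37 (adjusted p = 0.00184) was lost without the second section (-0.95, adjusted p = 0.0626). Pfkfb3 was 1.32 ± 0.30 higher in the BCL than in the GCL (adjusted p = 2.7e-04).

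Aldolase splits the 6-carbon sugar. Aldoa, the form of muscle and most tissues, had the highest counted level per kilobase of all members in each layer, at 774 ± 40.6 RPKM in the ONL, 483 ± 58.0 RPKM in the BCL and 494 ± 32.1 RPKM in the GCL. This order says nothing about Gapdh, Pgk1 and Pgam1, whose levels are not comparable. Its sections ran from 2107 to 2381 CPM in the ONL, from 1155 to 1509 CPM in the BCL and from 1338 to 1562 CPM in the GCL. The ONL was above both others, by 1.002 ± 0.110 on the log2 scale against the BCL (adjusted p = 4.5e-11) and 0.80 ± 0.10 against the GCL (adjusted p = 2.1e-09). Aldoc, the brain form that also marks astrocytes, had 176, 170, 185 and 181 CPM in the ONL, 248, 283, 386 and 361 CPM in the BCL and 436, 463, 559 and 504 CPM in the GCL. The layers did not overlap and the GCL was highest, with a log2 fold change of -1.30 ± 0.12 between the ONL and the GCL (adjusted p = 7.8e-14) and -0.78 ± 0.13 between the BCL and the GCL (adjusted p = 1.9e-06). Between the ONL and the BCL it was -0.52 ± 0.15 (adjusted p = 0.00383), lost without the third (-0.41, adjusted p = 0.0634) or the fourth section (-0.41, adjusted p = 0.0609). The 7 Müller glia markers and the 4 astrocyte markers, both cell types in which Aldoc is known, summed to 1327 ± 247 and 22.3 ± 13.2 CPM in the ONL, 7840 ± 399 and 34.8 ± 14.2 CPM in the BCL and 1929 ± 188 and 190 ± 28.3 CPM in the GCL. Their part in the Aldoc values was not tested.

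Tpi1, the triose phosphate isomerase, was not called in any comparison, at 215 ± 23.7, 290 ± 54.7 and 284 ± 34.0 CPM from the ONL to the GCL. For the ONL against the GCL its adjusted p was 0.054, and it was called with other scalings (adjusted p = 0.00166 on library totals). Gapdh and Pgk1 were not called either. With the section as a block Gapdh was called higher in the ONL than in the GCL (log2 fold change 0.72, adjusted p = 0.0333, against 0.66 and 0.0523 without the block).

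Enolase makes phosphoenolpyruvate. Eno1, the ubiquitous form, had 469, 479, 598 and 503 CPM in the ONL, 676, 662, 691 and 648 CPM in the BCL and 317, 301, 349 and 338 CPM in the GCL. Eno2, the neuron-specific enolase, had 668, 613, 641.5 and 641.5 CPM in the ONL, 753, 777, 732 and 791 CPM in the BCL and 1943, 1932, 1950 and 2122 CPM in the GCL. Eno1 was lowest and Eno2 highest in the GCL, in each case without overlap with another layer. Eno2 was lower in the ONL than in the GCL by -1.47 ± 0.10 on the log2 scale (adjusted p = 1.9e-18), and lower in the BCL by -1.55 ± 0.11 (adjusted p = 1.6e-17), while Eno1 was higher than in the GCL by 0.80 ± 0.11 in the ONL (adjusted p = 5.4e-09) and 0.87 ± 0.12 in the BCL (adjusted p = 1.4e-08). Neither enolase was called between the ONL and the BCL on the TMM scale.

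Pkm, the pyruvate kinase gene of both retinal splice forms, which these counts do not separate, had 811, 913, 904 and 857 CPM in the ONL, 645, 614, 706 and 643 CPM in the BCL and 543, 556, 602 and 584 CPM in the GCL. Every ONL section was above every other section. The log2 fold change was 0.75 ± 0.11 between the ONL and the BCL (adjusted p = 1.9e-07) and 0.77 ± 0.10 between the ONL and the GCL (adjusted p = 3.9e-09), and 0.02 ± 0.11 between the BCL and the GCL (adjusted p = 0.905).

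Lactate dehydrogenase is a tetramer of A and B chains, of which the A chain is known to favour lactate formation and the B chain lactate use. Ldha had 628, 775, 845 and 748 CPM in the ONL, 222, 302, 285 and 366 CPM in the BCL and 190, 214, 217 and 220 CPM in the GCL. Ldhb had 18.7, 15.2, 20.5 and 6.45 CPM in the ONL, 25.8, 4.80, 40.7 and 19.8 CPM in the BCL and 108, 118, 114 and 142 CPM in the GCL. Ldha was highest in the ONL and Ldhb highest in the GCL, both without overlap. Ldhb counts outside the GCL were between 1 and 15 UMIs per library, and its ONL and BCL values overlapped. The log2 fold change of Ldha was 1.67 ± 0.13 between the ONL and the BCL (adjusted p = 1.5e-15) and 1.99 ± 0.12 between the ONL and the GCL (adjusted p = 2.7e-21). That of Ldhb was -2.69 ± 0.23 between the ONL and the GCL (adjusted p = 3.0e-15) and -2.57 ± 0.29 between the BCL and the GCL (adjusted p = 1.7e-10). Per kilobase of gene model, Ldha was at 226 ± 27.3 RPKM and Ldhb at 9.70 ± 3.99 RPKM in the ONL, while in the GCL they were at 63.5 ± 4.19 and 76.8 ± 9.38 RPKM. The gene model of Ldha has 3310 bases and its canonical mRNA 1588, while those of Ldhb have 1570 and 1529. The order of the 2 genes in the GCL therefore depends on the length used, and in CPM Ldha was the higher one. Of their coding windows, 46.4% and 45.1% had copies elsewhere.

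Monocarboxylate transporters carry lactate and pyruvate with a proton. Slc16a1 (MCT1) had 293, 372, 347 and 268 CPM in the ONL, 165, 211, 183 and 222 CPM in the BCL and 45.9, 59.9, 47.6 and 41.0 CPM in the GCL. Slc16a7 (MCT2), the form with high affinity found in neurons, had 12.5, 6.92, 2.28 and 22.6 CPM in the ONL, 108, 67.2, 40.7 and 49.4 CPM in the BCL and 44.6, 46.5, 38.4 and 49.5 CPM in the GCL. The 3 layers of Slc16a1 did not overlap and declined from the ONL to the GCL, whereas every ONL section of Slc16a7 was below every section of the other layers. The 6 markers of the pigment epithelium, a cell type known for Slc16a1, Slc2a1 and Bsg, summed to 160 ± 15.1, 87.2 ± 14.2 and 36.0 ± 15.9 CPM from the ONL to the GCL, with Best1 at 0 in the BCL and the GCL, and their part in the values of these genes was not tested. The log2 fold change between the ONL and the GCL was 2.89 ± 0.15 for Slc16a1 (adjusted p = 5.8e-24) and -1.94 ± 0.32 for Slc16a7 (adjusted p = 6.4e-07). Between the ONL and the BCL they were 1.06 ± 0.15 (adjusted p = 3.6e-08) and -2.34 ± 0.37 (adjusted p = 6.8e-07). Slc16a3 (MCT4), the export form of glycolytic cells, had 38.7, 67.8, 54.8 and 54.8 CPM in the ONL, 51.6, 28.8, 15.2 and 59.3 CPM in the BCL and 15.3, 25.5, 18.4 and 22.2 CPM in the GCL. Its ONL and BCL sections overlapped, and the call between these layers (0.80 ± 0.30, adjusted p = 0.0338) was lost with DESeq2 (adjusted p = 0.127), on library totals (adjusted p = 0.272) and without the second (adjusted p = 0.355) or the third section (adjusted p = 0.203). Against the GCL, Slc16a3 was 1.57 ± 0.25 higher in the ONL (adjusted p = 4.3e-07). Bsg, whose product basigin brings MCT1 and MCT4 to the membrane, was at 398 ± 47.5, 550 ± 52.4 and 356 ± 16.3 CPM from the ONL to the GCL (SD, n = 4). It was higher in the BCL than in the GCL by 0.46 ± 0.12 (adjusted p = 0.00186). Its higher level in the ONL than in the GCL (0.33 ± 0.11, adjusted p = 0.00791) was lost on library totals (0.17, adjusted p = 0.176) and without the second section (0.24, adjusted p = 0.119).

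The Pdk genes encode kinases that switch off pyruvate dehydrogenase. Pdk3 had 63.7, 56.7, 43.4 and 45.1 CPM in the ONL, 20.6, 19.2, 15.2 and 0 CPM in the BCL and 35.7, 40.5, 49.2 and 56.3 CPM in the GCL. All BCL sections, with at most 4 UMIs each, were below all others, by a log2 fold change of 2.30 ± 0.39 for the ONL against the BCL (adjusted p = 2.4e-06) and -1.85 ± 0.40 for the BCL against the GCL (adjusted p = 1.8e-04). Pdk1 was at 23.8 ± 7.03, 51.2 ± 7.98 and 65.8 ± 21.5 CPM from the ONL to the GCL and was lower in the ONL than in the GCL by -1.40 ± 0.24 (adjusted p = 1.4e-06). Its lower level in the ONL than in the BCL (-0.87 ± 0.33, adjusted p = 0.034) was lost without the first (adjusted p = 0.107), the second (adjusted p = 0.122) or the fourth section (adjusted p = 0.0807). Pdk2 was not called, at 113 ± 16.7, 142 ± 8.99 and 137 ± 24.4 CPM.

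Pyruvate reaches the matrix through the carrier of MPC1 and MPC2 and is then oxidized by a complex whose catalytic E1 alpha chain is Pdha1. Pdha1 had 26.2, 19.4, 18.3 and 16.1 CPM in the ONL, 41.3, 28.8, 35.6 and 24.7 CPM in the BCL and 68.8, 67.4, 72.2 and 68.3 CPM in the GCL. The GCL was above both other layers in every section, by a log2 fold change of -1.54 ± 0.22 for the ONL against the GCL (adjusted p = 2.4e-08) and -1.25 ± 0.27 for the BCL against the GCL (adjusted p = 1.5e-04). The ONL and BCL overlapped and did not pass the test (adjusted p = 0.59). Mpc2 had between 2 and 13 UMIs per layer library and was not called.

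**Figure D3:**
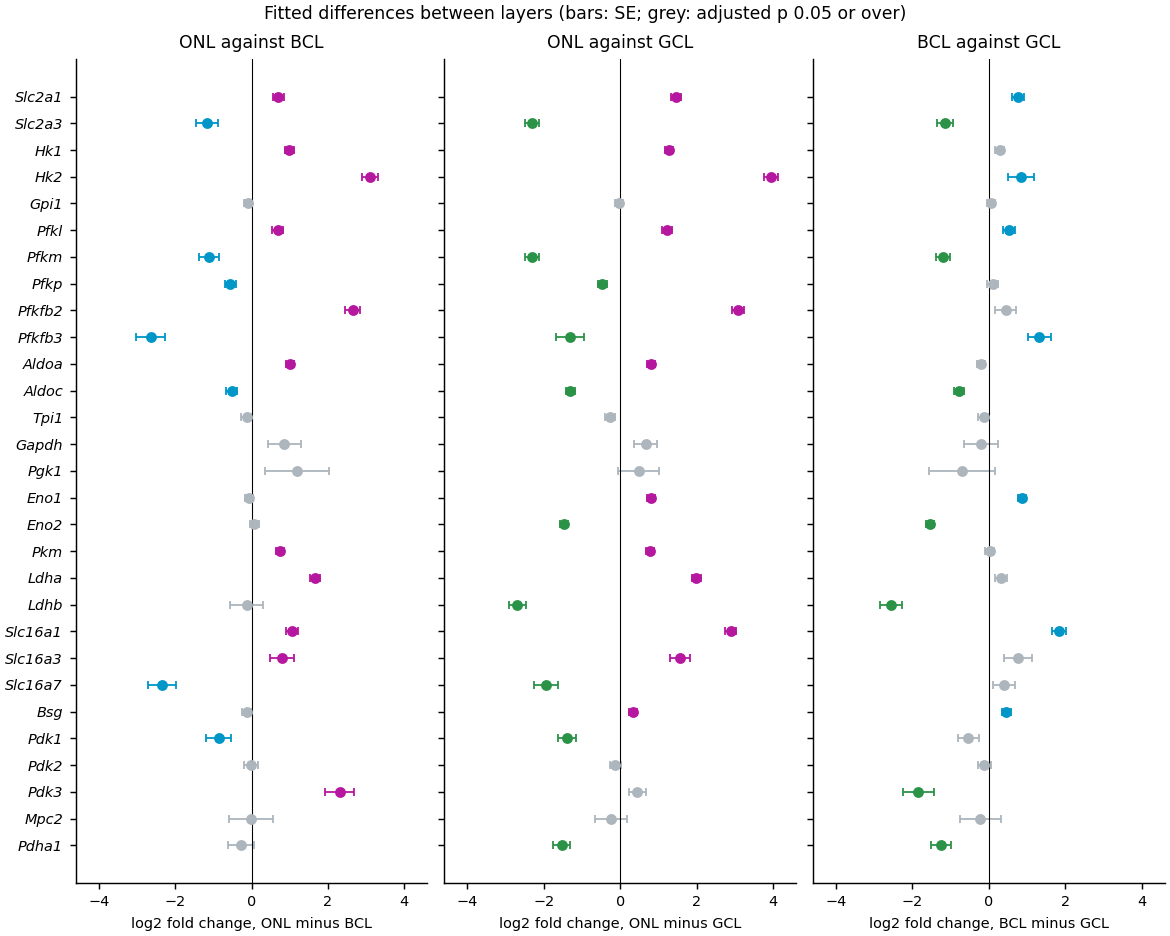
Log2 fold change (x axis) with SE bars for the 29 tested members in the 3 layer comparisons, 1 panel each, coloured by the layer with the higher level where the adjusted p is under 0.05 and grey otherwise. Hk2, Pfkfb2 and Pdk3 lie farthest on the ONL side in the first panel, at 3.11, 2.64 and 2.30, and Ldhb, Slc2a3 and Pfkm farthest on the GCL side in the second, at -2.69, -2.31 and -2.31.

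Within a step, the share of UMIs held by 1 isoform does not depend on the scaling between libraries. The share of Ldhb in Ldha and Ldhb was 2.01 ± 0.87% (SD, n = 4) in the ONL, against 7.40 ± 4.98% in the BCL and 36.4 ± 2.01% in the GCL. Slc2a3 took 8.10 ± 2.24%, 23.8 ± 4.32% and 54.2 ± 3.78% of Slc2a1 and Slc2a3, and Aldoc 7.32 ± 0.26%, 18.4 ± 1.83% and 25.4 ± 0.87% of Aldoa and Aldoc. All 3 shares had their lowest mean in the ONL and their highest in the GCL, and only that of Ldhb overlapped between the ONL and the BCL. Eno2 took 55.7 ± 2.89% and 53.3 ± 1.55% of the enolase UMIs in the ONL and the BCL and 85.9 ± 0.74% in the GCL. Hk2 took 22.02 ± 2.85% of the hexokinase UMIs in the ONL, while its share was 6.11 ± 2.496% in the BCL and 4.25 ± 1.28% in the GCL. Pfkfb2 took 97.2 ± 1.20% of Pfkfb2 and Pfkfb3 in the ONL, against 45.9 ± 9.92% in the BCL and 59.5 ± 7.997% in the GCL. The shares are of UMIs and are not corrected for length. For 4 sections against 4, a two-sided exact permutation test cannot give a p below 0.0286, which came to 0.0554 after Benjamini-Hochberg adjustment over the isoform sets and comparisons. None of the 8 sets passed 0.05 after adjustment in these comparisons. Between the ONL and the GCL 7 sets reached that smallest p, all but the pyruvate carrier, and between the ONL and the BCL 5 did, without the enolases and lactate dehydrogenases.

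**Figure D4:**
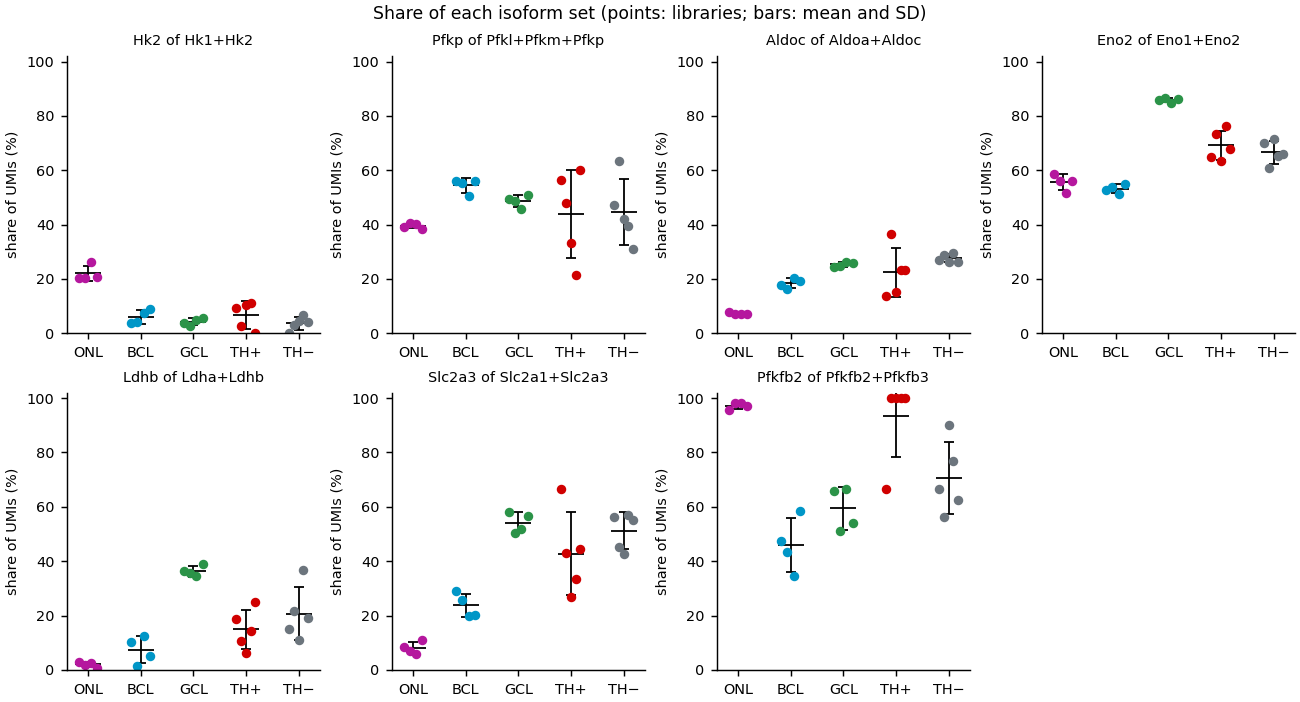
Share of the UMIs of 7 isoform sets held by 1 isoform (y axis, in percent), 1 point per library in each of 5 groups, with bars for the mean and SD. The GCL points of Ldhb, between 34.4% and 39.2%, lie above all ONL and BCL points, and the ONL points of Pfkfb2, between 95.5% and 98.1%, lie above those of the BCL and GCL.

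Summed over all 32 members, the level was 9240 ± 345 CPM in the ONL (SD, n = 4), 7842 ± 279 CPM in the BCL and 8147 ± 324 CPM in the GCL, or 0.92%, 0.78% and 0.81% of all UMIs. Without Gapdh and Aldoa the sums were 6958 ± 229, 6418 ± 169 and 6691 ± 229 CPM. With TMM-scaled totals of all listed genes the sums were 10348 CPM in the ONL, 6983 CPM in the BCL and 8173 CPM in the GCL. By role and on library totals, hexokinases summed to 1255 ± 45.3 CPM in the ONL, 662 ± 35.7 CPM in the BCL and 475 ± 25.9 CPM in the GCL. Lactate dehydrogenases summed to 764 ± 90.9, 316 ± 56.8 and 331 ± 26.1 CPM in the same order, and aldolases to 2431 ± 123, 1726 ± 225 and 1929 ± 147 CPM. These 3 roles had their highest sum in the ONL on either scale. Monocarboxylate carriers with basigin summed to 784 ± 76.3, 851 ± 60.6 and 470 ± 20.5 CPM, and phosphofructokinases to 491 ± 40.9, 651 ± 157 and 611 ± 20.3 CPM. For these 2 roles the order turned with the scaling. With TMM-scaled totals of the tested genes alone, a choice added after the data were seen, the carriers summed to 889, 769 and 477 CPM and were highest in the ONL, and phosphofructokinases to 555, 588 and 621 CPM and were highest in the GCL. Enolases summed to 1153 ± 62.2, 1432 ± 7.99 and 2313 ± 101.9 CPM, and the proteins of mitochondrial pyruvate entry to 31.0 ± 6.59, 45.0 ± 7.93 and 83.1 ± 7.10 CPM, both highest in the GCL on either scale. No test was run on these sums.

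The genes around the pathway were read from lists of related genes. The calls, medians and fold changes of these lists are on the TMM scale and were not run on library totals. Their CPM values use library totals. For TH+ against TH- amacrine cells, between 3 and 16 genes of each list were tested and 0 were called. Of all 6021 genes in that fit 0.83% were called, so a count of 0 was near that share. Of all genes in the layer fit, 18.5% were called higher and 18.2% lower in the ONL than in the BCL, 29.3% were higher in the ONL than in the GCL and 32.2% lower, and 16.1% were higher in the BCL than in the GCL and 20.4% lower. The medians over all genes were 0.09, 0.00 and -0.02 in these comparisons. Among 14 tested regulators of hypoxia and glycolysis, 5 were higher in the ONL than in the BCL and 4 lower, with a median log2 fold change of 0.04, and 6 were higher in the ONL than in the GCL and 3 lower, with a median of 0.41. In the BCL against the GCL 6 were higher and 1 lower, with a median of 0.53. Nxnl1, which gives rise to the rod-derived cone viability factor known to act on glucose uptake through basigin, was at 590 ± 49.5 CPM in the ONL, 115 ± 28.5 CPM in the BCL and 40.4 ± 13.9 CPM in the GCL. Hif1a, the hypoxia-inducible factor that drives many glycolytic genes, was at 1363 ± 98.9, 823 ± 110 and 554 ± 42.8 CPM. It was higher in the ONL by a log2 fold change of 1.05 ± 0.11 against the BCL (adjusted p = 2.8e-11) and 1.45 ± 0.11 against the GCL (adjusted p = 1.8e-17). Among the regulators lower in the ONL, Mycn was at 3.85 ± 2.06, 28.6 ± 12.1 and 22.2 ± 6.98 CPM from the ONL to the GCL. Hif3a was at 2.75 ± 2.07 CPM in the ONL against 28.7 ± 7.29 CPM in the BCL, and Mlxip at 13.5 ± 3.58 against 54.9 ± 14.5 CPM in the GCL. Among 20 tested citric acid cycle genes, 4 were higher in the ONL than in the BCL and 0 lower, with a median log2 fold change of 0.08. In the ONL against the GCL 2 were higher and 8 lower, with a median of -0.26, and in the BCL against the GCL 0 were higher and 9 lower, with a median of -0.43. Mdh2, the mitochondrial malate dehydrogenase, was at 264 ± 29.1 CPM in the ONL and 214 ± 24.8 CPM in the BCL, a log2 fold change of 0.63 ± 0.15 (adjusted p = 3.9e-04). Idh1, the cytosolic isocitrate dehydrogenase, was at 103 ± 18.7 CPM in the ONL, 78.3 ± 17.9 CPM in the BCL and 61.5 ± 6.55 CPM in the GCL. Ogdh, a subunit of the 2-oxoglutarate dehydrogenase, was at 353 ± 7.85 CPM in the ONL, 486 ± 51.3 CPM in the BCL and 738 ± 29.1 CPM in the GCL.

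Among 8 tested carriers outside the 32, 1 was higher and 5 were lower in the ONL than in the GCL, with a median log2 fold change of -2.76. In the ONL against the BCL 1 was higher and 1 lower (median -0.78), and in the BCL against the GCL 0 and 4 (median -1.50). The higher one was Slc16a6, a monocarboxylate transporter family member known to carry ketone bodies and taurine, at 135 ± 9.36 CPM in the ONL against 24.1 ± 11.1 CPM in the GCL. Among the lower ones were Emb, the embigin that partners MCT2, at 7.54 ± 3.81 against 114 ± 19.3 CPM, and Slc2a13, the proton-coupled inositol transporter, at 11.9 ± 11.3 against 133 ± 24.0 CPM. Emb stood at 17.5 ± 8.61 CPM in the BCL, with a log2 fold change of -2.86 ± 0.31 against the GCL (adjusted p = 2.6e-11), where Slc16a7 was not called. Of 9 tested genes of pyruvate dehydrogenase and pyruvate carboxylase, 1 was higher and 3 were lower in the ONL than in the GCL, shares near or below those of all genes, with a median of -0.09. Among the lower was Pcx, the pyruvate carboxylase, at 14.9 ± 4.91 against 62.8 ± 12.2 CPM. In the ONL against the BCL 1 was higher and 2 lower (median 0.19), and in the BCL against the GCL 0 and 2 (median -0.29). Of 13 tested genes of the pentose phosphate path and of glycogen, 3 were higher and 5 lower in the ONL than in the BCL, with a median of -0.16, among the latter Tkt, the transketolase, at 88.7 ± 21.2 against 333 ± 86.7 CPM, and Gbe1, the glycogen branching enzyme, at 22.8 ± 6.41 against 116 ± 17.6 CPM. In the ONL against the GCL 3 of these were higher and 4 lower, with a median of 0.34, and in the BCL against the GCL 4 were higher and 0 lower, with a median of 0.23. Of 12 other tested glycolysis genes, 1 was higher and 3 were lower in the ONL than in the BCL (median -0.41), 2 and 4 in the ONL than in the GCL (median -0.20), and 1 and 2 in the BCL than in the GCL (median 0.01). Of 4 tested genes of the malate-aspartate shuttle, 2 were higher and 0 lower in the first of these comparisons (median 0.58), 0 and 0 in the second (median 0.10), and 0 and 1 in the third (median -0.37).

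The 250 bases before the annotated start of the canonical transcript were read from GRCm39 for all 32 members and for 21770 protein-coding genes. ACGTG or its reverse complement, the core bound by hypoxia-inducible factors, was present before 34.4% of the members and 17.0% of all genes, and GCGTG or its reverse before 46.9% and 31.2%. CACGTG, the E-box that contains ACGTG on both strands, was present before 12.5% and 6.26%, and TAATCC, the core bound by the photoreceptor factor CRX, before 6.25% and 7.0005%. Of the 10 members called highest in the ONL, 4 held ACGTG, 6 GCGTG, 2 CACGTG and 0 TAATCC. Of the 6 called highest in the GCL, 1 held ACGTG, 3 GCGTG, 0 CACGTG and 1 TAATCC. A match describes the letters and is not a site in use. The members and all genes were not matched for base composition or for expression in the retina. The 3 stretches below belong to members much higher in the ONL than in the GCL that hold ACGTG on either strand, which with GCGTG is in capitals. Pfkm, Slc16a7 and Pfkp, lower in the ONL than in the GCL (log2 fold changes -2.31, -1.94 and -0.46), also hold ACGTG and are not printed. The Hk2 stretch is chr6:82751470-82751702 on the minus strand, the Ldha stretch chr7:46495013-46495131 on the plus strand and the Slc16a1 stretch chr3:104545561-104545810 on the plus strand. The first 2 end where an exon of another transcript of the gene begins.
Hk2: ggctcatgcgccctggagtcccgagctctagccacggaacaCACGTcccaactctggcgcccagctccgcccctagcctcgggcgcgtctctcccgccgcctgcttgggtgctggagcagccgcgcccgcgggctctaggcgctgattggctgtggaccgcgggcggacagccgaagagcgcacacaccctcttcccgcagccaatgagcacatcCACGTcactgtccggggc
Ldha: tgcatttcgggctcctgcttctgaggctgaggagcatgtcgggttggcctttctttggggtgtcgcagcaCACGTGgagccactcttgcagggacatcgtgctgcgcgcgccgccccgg
Slc16a1: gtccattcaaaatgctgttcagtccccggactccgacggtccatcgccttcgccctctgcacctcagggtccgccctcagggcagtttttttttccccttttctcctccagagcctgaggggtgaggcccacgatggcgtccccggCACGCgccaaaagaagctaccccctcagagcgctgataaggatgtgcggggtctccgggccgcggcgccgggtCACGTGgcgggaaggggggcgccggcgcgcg

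In the amacrine cells, 24 members passed the filter and 0 were called between TH+ and TH- cells by edgeR's quasi-likelihood test, where 0.83% of all 6021 genes tested were called, 0.747% higher in TH+ and 0.083% higher in TH- cells. By DESeq2 0 were called as well, and at an unadjusted p under 0.05 there were 4 of the 24, all lower in TH+ cells (Aldoc, Pdk2, Gpi1 and Slc2a3), beside 533 of all 6021 genes. With the section as a block the count over all genes rose from 50 to 148 and that of members stayed at 0. The median log2 fold change of the 24 was -0.10, beside -0.05 over all genes. A count of 0 in a TH+ library allows up to between 34.3 and 99.0 CPM. The labels were met by the markers, with 4 dopaminergic markers summing to 3241 ± 1005 CPM (SD, n = 5) in the TH+ libraries and 187 ± 50.4 CPM in the TH- libraries, where Ddc was at 0. Rod markers summed to 31175 ± 9841 CPM in the TH+ libraries and 18126 ± 5869 CPM in the TH- libraries.

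Aldoc had 225, 435, 235, 432 and 429 CPM in the 5 TH+ libraries and 460, 417, 491, 559 and 536 CPM in the TH- libraries, with a log2 fold change of -0.47 ± 0.20 (adjusted p = 0.423). Pdk2 had 143, 103, 23.5, 259 and 132 CPM in the TH+ libraries and 224, 127, 238, 219.6 and 282 CPM in the TH- libraries, with -0.73 ± 0.31 (adjusted p = 0.416). The 7 Müller glia markers, a cell type in which Aldoc is known, summed to 4378 ± 669 CPM in the TH+ libraries and 6397 ± 999 CPM in the TH- libraries, and their part in the Aldoc values was not tested. The groups overlapped in Aldoc and Pdk2, as they did in all 31 members listed. Gpi1 differed by -0.41 ± 0.20 and Slc2a3 by -0.65 ± 0.32 (adjusted p = 0.545 each). Slc16a1 was higher in TH+ cells in 5 of 5 sections, at 163, 80.0, 188, 173 and 132 CPM against 138, 46.3, 89.3, 135 and 119.8 CPM, but the ranges overlapped and the log2 fold change of 0.39 ± 0.33 was not called (adjusted p = 0.814, and 0.643 with the section as a block). Hk1, at 523 ± 160 against 439 ± 56.8 CPM (adjusted p = 0.779), and Eno2, at 937 ± 194 against 823 ± 95.7 CPM (adjusted p = 0.868), were higher in TH+ cells in 4 of 5 sections and were not called. Aldoa, at 1257 ± 285 against 1299 ± 176 CPM, and Ldha, at 280 ± 88.8 against 249.6 ± 33.1 CPM, were higher in TH+ cells in 2 and 3 of 5 sections.

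Hk2 did not pass the filter in these cells. It had 3, 1, 3, 4 and 0 UMIs in the TH+ libraries and 0, 2, 3, 7 and 3 UMIs in the TH- libraries, which is 45.95 ± 38.04 and 17.996 ± 13.05 CPM beside the rod marker sums above. The part of rod RNA in these UMIs was not tested. The isoform shares were 6.69 ± 5.03% and 3.71 ± 2.44% for Hk2, 69.1 ± 5.47% and 66.6 ± 4.20% for Eno2, 42.8 ± 15.2% and 51.2 ± 6.83% for Slc2a3, and 14.96 ± 7.27% and 20.7 ± 9.87% for Ldhb. By the exact permutation test none passed 0.05, the lowest p being 0.0635 for Pfkfb2, at 93.3 ± 14.9% and 70.5 ± 13.3% (adjusted p = 0.109). In the TH+ libraries that share rests on between 1 and 6 UMIs of Pfkfb2.

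**Figure D5:**
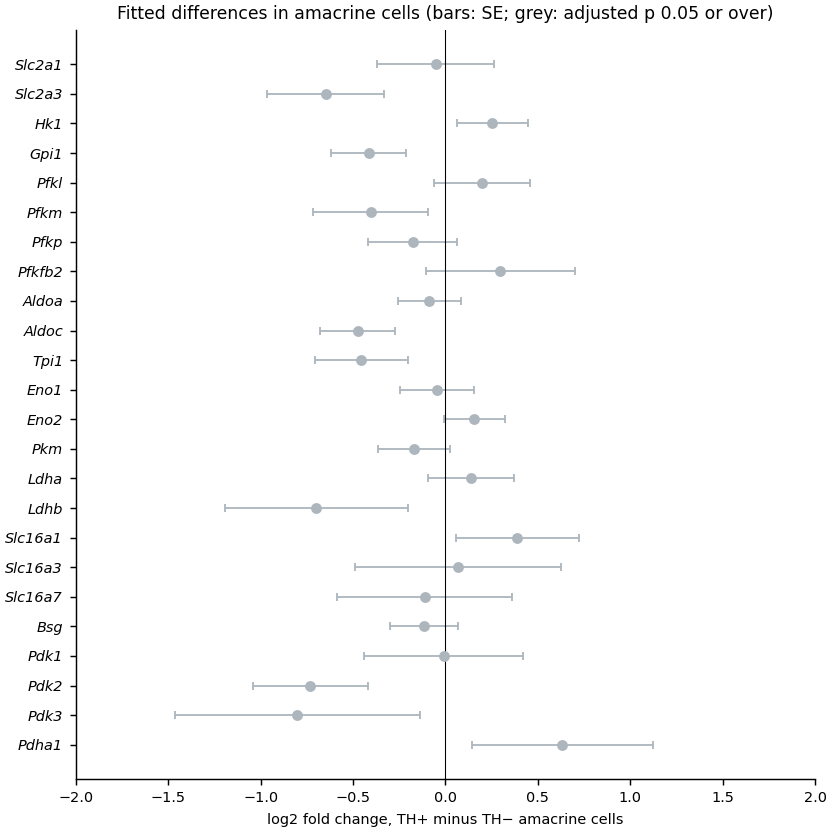
Log2 fold change (x axis, TH+ minus TH-) with SE bars for the 24 members tested in the amacrine cells, all in grey because none had an adjusted p under 0.05. The values run from -0.80 for Pdk3 to 0.63 for Pdha1.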

How the data were processed

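The barcoded regions were 3 layers in each of 4 sections, and TH+ with TH- amacrine cells in each of 5 others. As deposited, each count is a whole number of distinct UMIs per gene. The authors mapped cDNA reads of up to 40 bases with STAR 2.7.9a to the mouse genome (mm39, GENCODE vM27), discarded multimapped reads, assigned reads to exons with featureCounts and deduplicated with UMI-tools 1.1.1. Of the mixed-culture files only the gene lengths were used. Members and gene lists were chosen with earlier results of these data known. All members are named, and up to 2 genes of each related list and direction with the smallest p and the same direction in every section.

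Counts were fitted with edgeR 4.0.16 (R 4.3.3) with TMM scaling, 1 fit over the 12 layer libraries and 1 over the 10 amacrine libraries, keeping genes by filterByExpr with a minimum count of 3 and a total of 10. SE is the log2 fold change over the square root of F. CPM uses library totals, and RPKM divides CPM by the exon length (in kilobases) that the authors list for the gene. DESeq2 1.42.0, other scalings, filters and omitted sections were alternatives. Isoform shares were compared with exact permutation tests (scipy 1.17.1). Libraries of 1 section share a replicate number in the labels. Deviations from group means correlated between 0.012 and 0.049 within layer sections (12 pairs) and between 0.029 and 0.26 within amacrine sections (5 pairs).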

Additional observations from a re-analysis of the deposited data

Results flagged for a closer look

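Among 175 groups of 4 or 5 libraries checked for a value far from the rest (a gap to the nearest library above Dixon's critical share of the range), 13 held one, where chance flags about 1 in 20. In the ONL, Pfkm of section 1 was at 44.9 CPM with the others between 25.8 and 29.1 CPM, Pdk2 of section 2 was at 88.5 CPM with the others between 119 and 125 CPM, and the Hk2 share of hexokinase UMIs of section 3 was 26.3% with the others between 20.5% and 20.8%. In the BCL, Aldoa of section 1 was at 1155 CPM with the others between 1458 and 1509 CPM, and the Pfkp share of section 3 was 50.5% with the others between 55.3% and 55.9%. In the GCL, section 4 had 319 CPM of Pfkp with the others between 287 and 292 CPM and 2122 CPM of Eno2 with the others between 1932 and 1950 CPM, and section 3 had 174 CPM of Pdk2 with the others between 121 and 129 CPM. In the amacrine cells, Aldoa of TH+ section 2 was at 755 CPM with the others between 1294 and 1427 CPM, and Ldhb of TH- section 4 was at 140 CPM with the others between 37.2 and 57.9 CPM. The Pfkfb2 share of TH+ section 1 was 66.7% with the others at 100%. The Mpc2 share was 83.3% in GCL section 1 and 0% in TH- section 3 with the others of each group at 100%. Their causes were not tested.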

How the results depend on the processing

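The number of members called stayed within 1.5 times of the reported one under every alternative run, between 15 and 20 for the ONL against the BCL, 20 and 24 for the ONL against the GCL, 12 and 17 for the BCL against the GCL, and 0 throughout for the amacrine cells. With the replicate block of sections the counts were 18, 23, 15 and 0. The block added Gapdh between the ONL and the GCL and Hk1 between the BCL and the GCL (adjusted p = 0.0309, against 0.0514) and changed no other call. No called member changed direction. Of 18, 22 and 14 called members, 13, 20 and 12 remained called under every alternative, and the lost ones are named in the report. Among members not called, 4 and 7 changed sign in some alternative between the ONL and the BCL and between the BCL and the GCL, and 8 between TH+ and TH- cells. No isoform set passed 0.05 after adjustment under any alternative, exact paired tests within sections included, whose smallest p is 0.125 with 4 sections, so this says nothing about stability. The summed level became 10348 CPM in the ONL and 6983 CPM in the BCL with TMM scaling, and 9700 CPM in the ONL, 8370 CPM in the BCL and 8958 CPM in the GCL with the mitochondrially encoded genes left out of the totals, because the denominators change. Leaving out 1 section at a time kept each sum within 1 SD. Dropping 1 value cannot move the mean of its group by 1 SD, so this check could not fail and says nothing about the stability of the sums. Depth limits the TH+ libraries most, where members near 50 CPM rest on a few UMIs.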
